A study of Mus musculus with 18 samples.

Results

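The genes described here are 39 genes of the cone ribbon synapse, chosen by symbol from 54532 annotated mouse genes for the parts their proteins play at the photoreceptor terminal. The choice was made with earlier results of these data known. Of these, 8 encode the ribbon and the active zone scaffold, 5 the calcium channel and its partners, 6 the synaptic vesicle, 12 the priming and fusion machinery, 3 endocytosis and photoreceptor trafficking, and 5 the adhesion and matrix proteins that span the synaptic cleft. Each symbol matched 1 gene ID. They were measured by RNA-seq in cones sorted from WT mouse retinas, with 6 control and 6 Txnip libraries from albino BALB/c mice at P21 and 3 control and 3 Txnip libraries from pigmented C57BL/6J mice at P35, 1 library per retina. All eyes were injected under the retina at P0 with AAV8-SynP136-H2BGFP, which labels cone nuclei for sorting, and the Txnip eyes were given in addition AAV8-RedO-Txnip, in which the human red opsin promoter drives Txnip in cones. The C57BL/6J strain carries a null allele of Nnt, a mitochondrial proton-pumping transhydrogenase. The Txnip contrasts ask what the vector changed within each strain. The strain contrasts set P35 C57BL/6J against P21 BALB/c, so strain, age and any difference in handling of the 2 sets cannot be told apart. Which retinas came from the same mouse is not given, so p-values measure the spread between retinas.

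A cone signals by a graded release of glutamate that is high in the dark and falls in light. Its terminal, the pedicle, holds synaptic ribbons, plates built mainly of RIBEYE that tether vesicles above clusters of L-type calcium channels, and the vesicles fuse through the same SNARE proteins as at other synapses but with complexins of their own, CPLX3 and CPLX4, and with syntaxin-3 in place of syntaxin-1. On the far side of the cleft, bipolar and horizontal cell dendrites are held in place by a bridge of dystroglycan, dystrophin and pikachurin and by ELFN proteins that bind postsynaptic glutamate receptors.

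RIBEYE has no gene of its own. It is the product of a second start inside Ctbp2, and the annotation holds both starts: transcript Ctbp2-201 begins at base 133123367 of chromosome 7 on the minus strand, and transcript Ctbp2-214 begins 108119 bases further on, at 133015248, with a first exon of 1731 bases of which 1687 are coding. The counts are per gene, so RIBEYE and CtBP2 were summed. The TAATCC core that the cone and rod factors CRX and OTX2 bind was searched on both strands in the 250 bases before the start of each RefSeq promoter entry (GRCm38.p6). Of the 39 genes, 33 had an entry, and 4 of these held the core, against 7.21% of 27025 genes with an entry and 6.25% of 32851 entries in all. One of the 4 is Ctbp2, at the start of the RIBEYE transcript. Its other entry, at a start between the 2 above, did not hold the core, and the bases before the CtBP2 start at 133123367 were not searched. The bases around the core are shown for the 4 genes because they include the ribbon's own gene and Unc119, which differed between the strains. The core is in capitals, as TAATCC or as its reverse complement GGATTA, and each line reads 5′ to 3′ on the strand of the gene.
Ctbp2 (RIBEYE start): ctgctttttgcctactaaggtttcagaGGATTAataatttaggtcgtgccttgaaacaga
Sv2b (upstream start): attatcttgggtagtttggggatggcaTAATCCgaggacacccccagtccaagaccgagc
Syp: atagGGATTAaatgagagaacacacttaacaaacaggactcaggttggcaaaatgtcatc
Unc119 (internal start): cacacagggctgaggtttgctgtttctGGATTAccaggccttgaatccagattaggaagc
The windows lie at chr7:133015336-133015395 on the minus strand for Ctbp2, chr7:75309380-75309439 on the minus strand for Sv2b, chrX:7638330-7638389 on the plus strand for Syp and chr11:78345439-78345498 on the plus strand for Unc119. The core begins 121 bases before the start in Ctbp2, 150 in Sv2b, 246 in Syp and 118 in Unc119. In Unc119 that start lies inside the gene, which begins at 78343482, and neither the entry at the gene's own start nor another further downstream held the core. Of 4 Sv2b entries a further one also held it, 91 bases before a downstream start. A match of 6 letters is a description of the sequence and was not tested for binding.

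Library totals ran from 647712 to 5172156 counted read pairs, with a median of 2886629. The cone marker list took between 3.75% and 9.9% of the counts, and none of its 11 genes was at 0 throughout a group. Txnip, the vector's gene, had at most 3 counts in any control library and between 663 and 8536 in the Txnip libraries. The 10 bipolar cell markers took 0.00698% to 0.0111% of the BALB/c counts and 0.00113% to 0.00655% in 4 of the C57BL/6J libraries. C57BL/6J control 1 and C57BL/6J Txnip 2 stood apart in these markers, at 0.0368% and 0.0455%. All 10 bipolar markers, 7 of 10 rod markers and 7 of 8 Müller glia markers were highest in these 2 of the 6 C57BL/6J libraries. The summed rod list took 2.49% and 1.70% of their counts, against 1.01% to 1.76% in the other 16 libraries, and the Müller glia list 0.145% and 0.0965%, against 0.036% to 0.129%. Calls gained or lost without them are given beside the results. Among the BALB/c controls, libraries 4 and 5 stood apart, with library 2 nearer to them: the chi-square per degree of freedom was 3.95 between 4 and 5 and 5.61 and 5.37 between these and 2, against 13.7 to 24.4 between 4 or 5 and the other 3 controls, which ran from 3.24 to 5.38 among themselves. Controls 4 and 5 had 29629 and 29401 genes with a count, against 16914 to 26696 in the other 16 libraries. Calls gained or lost without them, and the Txnip values without them, are given beside the results. By the same chi-square, C57BL/6J control 2 was farthest from its group, at 65.8 and 65.9, against 16.9 between controls 1 and 3. C57BL/6J Txnip 1 was at 80.4 and 47.4, against 18.5 between Txnip 2 and 3. Control 2 and Txnip 1 were left out singly and not together. The amacrine cell list took 0.0262% to 0.0456% of the BALB/c counts and 0.0107% to 0.0326% of the C57BL/6J counts, with medians lower in C57BL/6J for 8 of 10 of its genes in control and in Txnip libraries. In sorted bulk samples, fewer cells of a type and less RNA per cell cannot be told apart.

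Levels are given as CPM, counts scaled to a common library size, after TMM scaling of the library totals, and, between genes, as CPM per kb of exonic length. Exonic length counts every annotated exon base of a gene once, so it can exceed the length of the transcripts present. Summed over the 39 genes, the control cones held 12850 ± 175.3 CPM (SD, n = 6) in BALB/c and 13272 ± 1199 CPM (SD, n = 3) in C57BL/6J. In either strain, 31 of the 39 had a mean level per kb above the median of the 14751 genes tested. The complexins, Snap25 and Rab3a led the order in BALB/c controls, and Cacna1d, Cadps2, Erc1 and Cadps closed it.

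**Figure D1:**
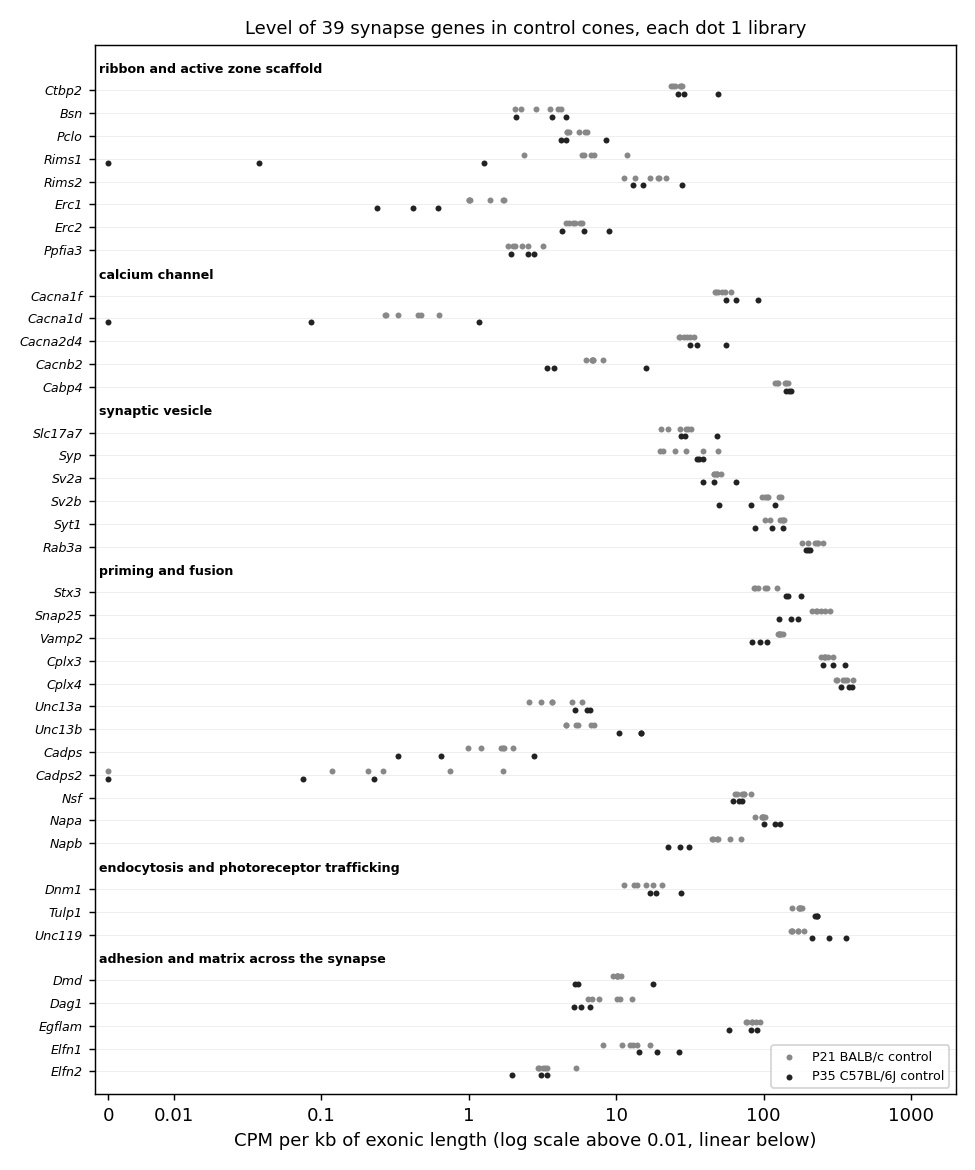
CPM per kb of exonic length (log scale above 0.01, linear below) of the 39 genes by role, with each dot 1 control library of BALB/c (grey, n = 6) or C57BL/6J (black, n = 3). Cplx4 and Cplx3 have the highest means in both strains, and Rims1, Cacna1d and Cadps2 are the genes with a library at 0.

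Among the priming and fusion genes, Cplx4 and Cplx3, which encode the photoreceptor complexins, were the 2 highest of all 39 genes in both strains. Cplx4 was at 350.1 ± 36.2 CPM per kb in BALB/c controls (SD, n = 6) and 369.1 ± 30.7 in C57BL/6J controls (SD, n = 3). Its CPM was between 542 and 710 (median 618) in BALB/c and 659, 587 and 692 in the 3 C57BL/6J controls, so the groups overlapped. Cplx3 was at 265.9 ± 17.3 and 301.7 ± 50.8 CPM per kb. Next in this group in BALB/c came the SNARE genes Snap25 at 242.3 ± 24.8, Vamp2 (synaptobrevin-2) at 129.4 ± 3.74 and Stx3 (syntaxin-3) at 99.3 ± 14.3 CPM per kb. The ATPase that takes spent SNARE complexes apart, Nsf, was at 71.7 ± 6.51, with its adaptors Napa (alpha-SNAP) at 97.2 ± 5.19 and Napb (beta-SNAP) at a mean of 52.7, with its library values below. Per kb the priming factors were far lower. Unc13b (Munc13-2) was at 5.61 ± 1.06 CPM per kb, Unc13a (Munc13-1) at 3.97 ± 1.22, Cadps (CAPS1) at 1.55 ± 0.373 and Cadps2 (CAPS2) at 0.506 ± 0.640. Cadps2 had 102 counts over all 18 libraries and was not tested. Without division by length, Unc13b, with 22746 exonic bases, was at a mean of 127.5 CPM in BALB/c and 300.5 CPM in C57BL/6J controls.

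The vesicle genes were led by Rab3a, the small GTPase of the vesicle surface, at 219.9 ± 25.5 CPM per kb in BALB/c controls (SD, n = 6) and 200.2 ± 7.38 in C57BL/6J controls (SD, n = 3). Its CPM was 403 to 564 (median 504) in BALB/c and 447, 429 and 461 in C57BL/6J, within the BALB/c range. Syt1, the calcium sensor of fusion, followed at 124.7 ± 14.8 CPM per kb. The vesicle glycoproteins Sv2b and Sv2a were at 111.5 ± 13.6 and 47.9 ± 2.00. Syp (synaptophysin) was at 30.5 ± 11.4 CPM per kb, and 16.8% of its exonic bases are shared with Gm14703, with pairs there counted for both genes. Slc17a7, which encodes the glutamate transporter VGLUT1 that fills the vesicles, had the lowest mean of the 6 vesicle genes in both strains, within the spread of Syp, at 34.9 ± 11.2 CPM per kb in C57BL/6J controls.

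In the calcium channel group, Cabp4, the calcium-binding protein that shifts channel activation, was highest at 132.1 ± 11.3 CPM per kb in BALB/c controls (SD, n = 6) and 147.4 ± 5.94 in C57BL/6J controls (SD, n = 3). Its CPM was 170 to 208 (median 189) in BALB/c and 202, 212 and 219 in C57BL/6J, which overlapped at the upper end. Cacna1f, the pore subunit of the photoreceptor channel Cav1.4, was at 51.7 ± 5.14 CPM per kb, and the accessory subunits Cacna2d4 and Cacnb2 at 29.6 ± 2.80 and 6.99 ± 0.645. The pore subunit of Cav1.3, Cacna1d, was the lowest of the 39 genes in BALB/c controls at 0.405 ± 0.140 CPM per kb.

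Of the scaffold genes, Ctbp2 was highest per kb, at 25.8 ± 1.89 CPM per kb in BALB/c controls (SD, n = 6) and 34.7 ± 12.5 in C57BL/6J controls (SD, n = 3). In CPM, Rims2 was higher in BALB/c controls, at a mean of 177 against 160.6 for Ctbp2. The RIM proteins link vesicle and channel, and Rims2 was at 17.04 ± 3.99 and Rims1 at 6.66 ± 3.04 in BALB/c controls. The giant scaffolds Pclo (Piccolo) and Bsn (Bassoon), which anchor the ribbon, were at 5.35 ± 0.764 and 3.15 ± 0.913. The ELKS genes Erc2 and Erc1 were at 5.21 ± 0.507 and 1.31 ± 0.353, and Ppfia3 (liprin-alpha-3) at 2.31 ± 0.487.

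Tulp1 and Unc119, photoreceptor proteins of trafficking and of the terminal, were at 172.3 ± 8.50 and 166.4 ± 13.6 CPM per kb in BALB/c controls (SD, n = 6), and Dnm1 (dynamin-1), which pinches off endocytic vesicles, at 15.4 ± 3.33. Across the cleft, Egflam (pikachurin) led at 83.7 ± 7.12 CPM per kb in BALB/c and 76.8 ± 16.6 in C57BL/6J. Its CPM was 467 to 581 (median 509) in BALB/c controls and 356, 551 and 502 in C57BL/6J controls, with both strains spanning the same values but for 1 lower C57BL/6J library. Elfn1 was at 12.5 ± 2.91, Dmd (dystrophin) at 10.1 ± 0.384, Dag1 (dystroglycan) at 9.07 ± 2.51 and Elfn2 at 3.52 ± 0.921.

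Between the strains, 10 of the 38 genes tested passed an adjusted p of 0.05 in control cones (edgeR quasi-likelihood test, Benjamini-Hochberg adjustment over all 14751 genes), 5 higher and 5 lower in P35 C57BL/6J. That is 26.3% of the 38, beside 17.5% of all genes tested (8.03% higher and 9.52% lower). The set was chosen with earlier results of these data known, so this share is a description. The median log2 difference was 0.11 over the 38 genes and -0.0012 over all genes. The Txnip cones of the 2 strains are other libraries. Both contrasts come from 1 fit with a shared estimate of spread and join strain, age and handling, so they are not independent. In Txnip cones 11 of 38 genes passed, 7 higher and 4 lower, beside 17.6% of all genes (8.24% higher and 9.38% lower). Of these, 9 passed in both contrasts, each in the same direction. The sign agreed between the contrasts in 33 of 38 genes, and in 76.1% of all genes tested. Without BALB/c controls 2, 4 and 5, 7 of 38 genes passed in control cones, beside 10.4% of all genes. The 3 lost were Vamp2 (log2 -0.45, adjusted p = 0.0538), Tulp1 (log2 0.37, adjusted p = 0.0813) and Cacna1f (log2 0.48, adjusted p = 0.0888). Without controls 4 and 5 alone, 9 passed, beside 12.5%, and Cacna1f was the 1 lost (adjusted p = 0.112). With either set of controls left out, Dnm1 was gained and Ctbp2 lost in Txnip cones (adjusted p = 0.0556 for Ctbp2 without controls 2, 4 and 5).

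**Figure D2:**
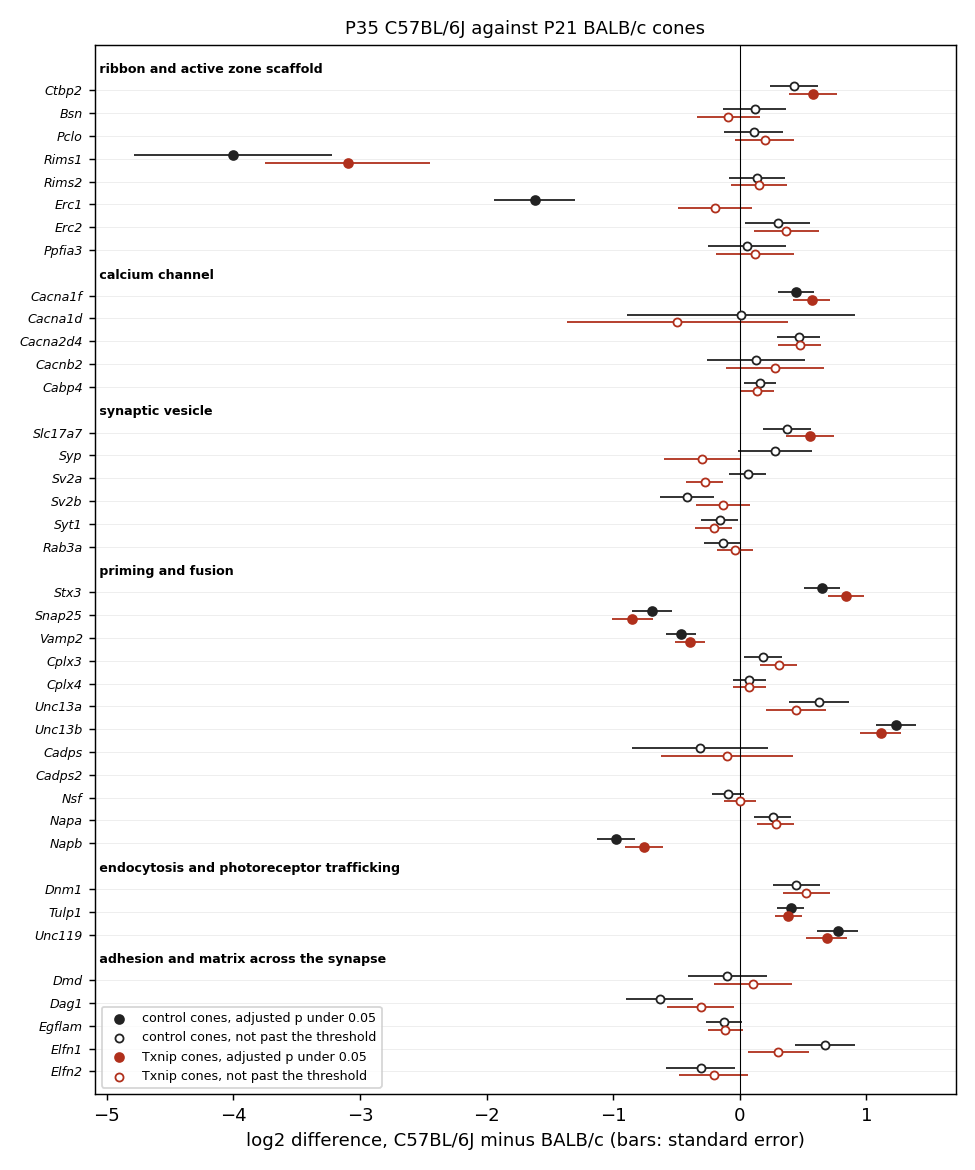
log2 difference, C57BL/6J minus BALB/c, of each gene in control (black) and Txnip (red) cones, with bars of 1 SE and filled points past an adjusted p of 0.05. Rims1 lies farthest left at -4.00 and -3.10, Unc13b farthest right at 1.23 and 1.11, and Erc1 is past the threshold in control cones only.

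The priming and fusion genes held 5 of the 10, and they moved both ways. Unc13b (chr4:43058953-43264871, plus strand) was 103 to 160 CPM (median 123) in BALB/c controls and 236, 332 and 334 CPM in C57BL/6J controls, with no overlap. The log2 difference was 1.23 ± 0.16 (SE), or 2.35-fold, with an edgeR adjusted p of 9.97e-06. In Txnip cones Unc13b was 119 to 172 CPM in BALB/c and 281, 376 and 285 CPM in C57BL/6J, a log2 difference of 1.11 ± 0.16 (adjusted p = 3.5e-05). Its paralog Unc13a had a log2 difference of 0.63 ± 0.23 in control cones that did not pass (adjusted p = 0.069). It was 0.35 without BALB/c controls 2, 4 and 5 (adjusted p = 0.438), and it passed with all genes of at least 1 count (adjusted p = 0.0233), with the length correction described with the long genes and without BALB/c control 3 or C57BL/6J Txnip 1 or 2 (adjusted p between 0.0322 and 0.0495).

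Napb (chr2:148693985-148732467, minus strand) was 314 to 493 CPM (median 344) in BALB/c controls and 190, 158 and 218 CPM in C57BL/6J controls. All 3 C57BL/6J libraries were below every BALB/c library. The log2 difference was -0.98 ± 0.15 in control cones (1.97-fold lower, edgeR adjusted p = 9.21e-05) and -0.76 ± 0.15 in Txnip cones (adjusted p = 0.00116). Napa, the other SNAP adaptor, had log2 differences of 0.26 ± 0.15 and 0.28 ± 0.15, neither past the threshold. In Txnip cones that of Napa rested on single libraries: it passed without C57BL/6J Txnip 2 (log2 0.45, adjusted p = 0.0273), as it did without control 1 and Txnip 2 (log2 0.45, adjusted p = 0.0263), and was 0.0045 without Txnip 1. Cplx3, at 0.31 ± 0.15 in Txnip cones (adjusted p = 0.16), passed without the same 2 libraries (log2 0.50, adjusted p = 0.0034), without Txnip 2 alone (adjusted p = 0.00731) and with the share of the rod list without Sag and Pde6g as a covariate (adjusted p = 0.0432), and was 0.08 without Txnip 1.

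The 3 SNARE genes did not move together. Snap25 was 1441 to 1900 CPM (median 1612) in BALB/c controls and 1042, 859 and 1157 CPM in C57BL/6J controls, a log2 difference of -0.69 ± 0.16 (edgeR adjusted p = 0.00381). In Txnip cones it was 1511 to 1855 CPM and 1223, 669 and 1002 CPM, a log2 difference of -0.85 ± 0.16. Vamp2 was lower as well, by less: the log2 differences were -0.46 ± 0.12 in control cones (adjusted p = 0.00953) and -0.39 ± 0.12 in Txnip cones (adjusted p = 0.0258). The calls of Vamp2 were lost without C57BL/6J control 3 (log2 -0.38, adjusted p = 0.0815) and without C57BL/6J Txnip 1 (log2 -0.29, adjusted p = 0.13). Stx3 was higher in C57BL/6J, with CPM of 490 to 707 against 837, 807 and 1023 in control cones and 417 to 500 against 1006, 645 and 858 in Txnip cones. Its log2 differences were 0.65 ± 0.14 (adjusted p = 0.00267) and 0.84 ± 0.14 (adjusted p = 0.000211). With a correction of each library for gene length, the calls of Snap25 (log2 -0.51, adjusted p = 0.0698) and Vamp2 (log2 -0.34, adjusted p = 0.0781) in control cones were lost, as was that of Vamp2 in Txnip cones (log2 -0.32, adjusted p = 0.11), while that of Stx3 was kept. Vamp2 also passed in neither contrast with all genes of at least 1 count kept (adjusted p = 0.073 and 0.22), nor in Txnip cones with only the 2 Txnip groups fitted (adjusted p = 0.0555).

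The largest difference among the 38 genes was in Rims1 (chr1:22286251-22805994, minus strand), which encodes RIM1. It was 17.6 to 87.2 CPM (median 47.2) in BALB/c controls. In the 3 C57BL/6J controls it was 9.37, 0 and 0.277 CPM, from 26, 0 and 1 counts. The log2 difference was -4.00 ± 0.78 (edgeR adjusted p = 0.000927). In Txnip cones it was 71.7 to 111 CPM (median 79.4) in BALB/c and 24.7, 4.40 and 0.923 CPM in C57BL/6J, a log2 difference of -3.10 ± 0.65 (adjusted p = 0.00188). No C57BL/6J library reached the lowest BALB/c library of its treatment. Most of these few control counts, 26, came from C57BL/6J control 1, one of the 2 libraries that stood apart, and most of the Txnip counts, 91, from C57BL/6J Txnip 1, which had 0.00197% bipolar and 1.76% rod marker counts. Without Txnip 1 the log2 difference in Txnip cones was -5.18. Without C57BL/6J control 1 and Txnip 2 the fitted log2 difference was -7.96 in control cones, a value that rests on 1 count (adjusted p = 2.69e-05), and -2.80 in Txnip cones (adjusted p = 0.00127). By median, the amacrine, horizontal, Müller glia and bipolar lists were also lower in C57BL/6J in both treatments, and the rod list was higher. In BALB/c and C57BL/6J controls the medians were 0.0316% and 0.0118% (amacrine) and 0.00548% and 0.00203% (horizontal). They were 0.114% and 0.0774% for Müller glia and 0.00742% and 0.00655% for bipolar cells. The part of these lists in the Rims1 difference was not tested. Rims2, the paralog at a higher level per kb, had log2 differences of 0.14 ± 0.22 and 0.15 ± 0.22, which turned negative in control cones without BALB/c controls 4 and 5 (log2 -0.06) or C57BL/6J control 2 (log2 -0.30) and in Txnip cones without C57BL/6J Txnip 2 (log2 -0.08).

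Erc1 was the other scaffold gene past the threshold in control cones. It was 16.3 to 28.3 CPM (median 19.6) in BALB/c controls and 10.1, 6.80 and 3.88 CPM in C57BL/6J controls, a log2 difference of -1.62 ± 0.32 (edgeR adjusted p = 0.000957). In Txnip cones the groups overlapped, at 9.3 to 19.5 CPM and at 11.7, 12.1 and 15.5 CPM, with a log2 difference of -0.20 ± 0.29 (adjusted p = 0.704). With 1 library left out that value ran from -0.34 without C57BL/6J Txnip 3 to -0.10 without BALB/c Txnip 1 and was -0.02 with the length correction. The counts were low, 759 over all libraries, and 11.8% of the exonic bases of Erc1 are shared with Gm44317. Ctbp2 did not pass in control cones, where its log2 difference was 0.43 ± 0.19 (adjusted p = 0.127) and 0.07 without C57BL/6J control 2. It was 145 to 173 CPM (median 161) in BALB/c controls and 179, 305 and 164 CPM in C57BL/6J controls. It passed in Txnip cones at 0.58 ± 0.19 (adjusted p = 0.0369), where C57BL/6J Txnip 2 was highest at 300.6 CPM, and without the 2 libraries that stood apart it did not (log2 0.34, adjusted p = 0.232). Leaving out C57BL/6J Txnip 2 alone gave 0.34 (adjusted p = 0.254). The other 5 scaffold genes, Bsn, Pclo, Rims2, Erc2 and Ppfia3, had log2 differences of 0.06 to 0.30 in control cones, none past the threshold. Erc2 passed in Txnip cones without C57BL/6J Txnip 1 (log2 0.72 against 0.37 with it, adjusted p = 0.0263).

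**Figure D3:**
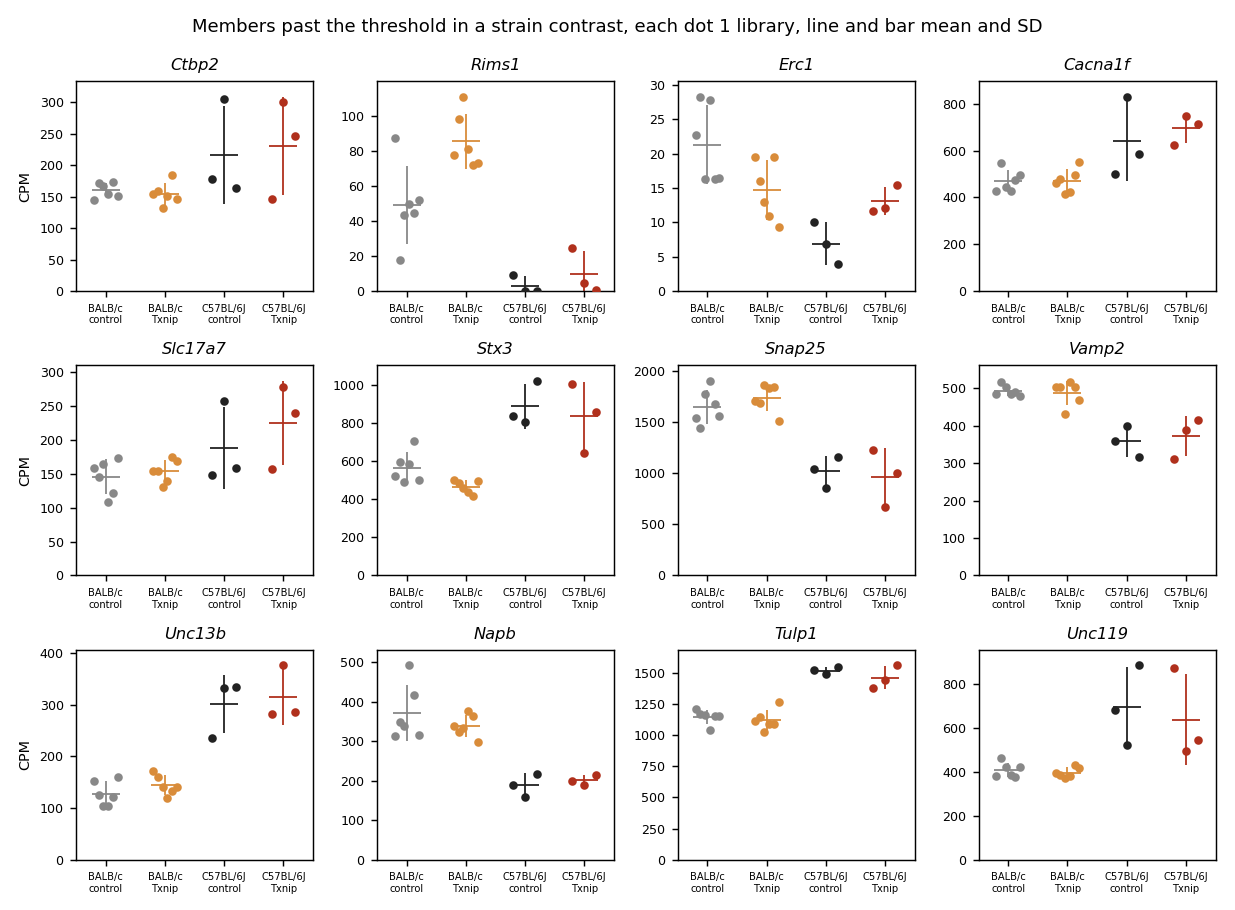
CPM of the 12 genes past the threshold in either strain contrast, with each dot 1 library, a line at the group mean and a bar of 1 SD, and each axis starting at 0. Unc13b, Stx3, Tulp1 and Unc119 are higher and Rims1, Napb, Snap25 and Vamp2 lower in both C57BL/6J groups than in the BALB/c group of the same treatment, with no library overlapping.

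Tulp1 and Unc119, whose loss is known to disturb photoreceptor terminals, were both higher in C57BL/6J cones. Unc119 was 376 to 461 CPM (median 402) in BALB/c controls and 681, 523 and 884 CPM in C57BL/6J controls, a log2 difference of 0.77 ± 0.16 (1.71-fold, edgeR adjusted p = 0.0017). In Txnip cones it was 371 to 432 CPM in BALB/c and 873, 492 and 544 CPM in C57BL/6J, a log2 difference of 0.69 ± 0.16 (adjusted p = 0.00477). That call rested on the highest library, Txnip 1, without which the log2 difference was 0.38 (adjusted p = 0.0944). Tulp1 was 1040 to 1209 CPM (median 1159) in BALB/c controls and 1521, 1488 and 1544 CPM in C57BL/6J controls. This was a tight and non-overlapping difference of 0.40 ± 0.10 on the log2 scale (1.32-fold, adjusted p = 0.00991), with 0.38 ± 0.10 in Txnip cones (adjusted p = 0.0136) that was lost without C57BL/6J Txnip 3 (log2 0.33, adjusted p = 0.0856). With all genes of at least 1 count kept in the fit, Tulp1 passed in neither contrast (adjusted p = 0.097 and 0.11). Dnm1 had log2 differences of 0.45 ± 0.19 (adjusted p = 0.103) and 0.53 ± 0.19 (adjusted p = 0.0539). Its control value was 0.22 without BALB/c controls 2, 4 and 5 and 0.19 without C57BL/6J control 2. In Txnip cones Dnm1 passed under 9 alternatives, with adjusted p between 0.0165 and 0.0487, and was 0.33 without C57BL/6J Txnip 2 (adjusted p = 0.277).

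Among the channel genes, Cacna1f was higher in C57BL/6J. It was 428 to 547 CPM (median 458) in BALB/c controls and 501, 831 and 587 CPM in C57BL/6J controls, which overlapped, with a log2 difference of 0.44 ± 0.14 (edgeR adjusted p = 0.0361). In Txnip cones it was 413 to 552 CPM and 624, 747 and 715 CPM without overlap, a log2 difference of 0.57 ± 0.14 (adjusted p = 0.00786). The control call was the least steady of the 10: with only the 2 control groups fitted its adjusted p was 0.0716, with all genes of at least 1 count kept it was 0.0665, and the call was lost without BALB/c control 1, 3, 4, 5 or 6, BALB/c Txnip 1, 2 or 3 or C57BL/6J control 2 or 3, each left out on its own. The largest shift was without C57BL/6J control 2, the highest library, to a log2 difference of 0.19 (adjusted p = 0.379). The other 4 channel genes did not pass in either contrast. The nearest was Cacna2d4, at 0.47 ± 0.17 in control cones (adjusted p = 0.0623) and 0.47 ± 0.17 in Txnip cones (adjusted p = 0.0592), which passed in both with the rod share, or that of the rod list without Sag and Pde6g, as a covariate, with the length correction and without C57BL/6J control 1. It was 0.16 in control cones without C57BL/6J control 2 (adjusted p = 0.558) and 0.25 in Txnip cones without C57BL/6J Txnip 2 (adjusted p = 0.364). Cacna1d reached 14.8 CPM in C57BL/6J control 1 and 14.3 CPM in Txnip 2, and 0 to 1.85 CPM in the other 4 C57BL/6J libraries, against 3.40 to 7.93 CPM in BALB/c controls. The priming gene Cadps showed the same 2 libraries on top, at 41.8 and 66.4 CPM against 5.01 to 12.7 CPM in the other 4. Without these 2 libraries, Cacna1d was lower in C57BL/6J, with a log2 difference of -3.31 ± 0.88 in control cones (adjusted p = 0.0104) and -2.85 ± 0.74 in Txnip cones (adjusted p = 0.00801), and so was Cadps at -1.64 ± 0.33 (adjusted p = 0.00109) and -1.54 ± 0.31 (adjusted p = 0.00104). The 2 libraries were left out after the data were seen. They held the highest C57BL/6J values of both genes, so these differences were shaped by that choice. The other 4 C57BL/6J libraries also had lower bipolar and Müller glia shares than any BALB/c library. Bipolar shares were 0.00113% to 0.00655% against 0.00698% to 0.0111%, and Müller glia shares 0.036% to 0.0774% against 0.103% to 0.129%. Their part was not tested. In all, 13 of 39 genes passed in each contrast without the 2 libraries, beside 17.6% and 20.3% of all genes tested, and the 10 genes called in control cones were among the 13. Those gained were Cacna1d, Cadps and Cacna2d4 in control cones and Cacna1d, Cadps, Napa and Cplx3 in Txnip cones, where Ctbp2 and Slc17a7 were lost.

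No vesicle gene passed in control cones with all libraries. Sv2b, with a log2 difference of -0.42 ± 0.22, passed without C57BL/6J control 2 (log2 -0.79, adjusted p = 0.0162) and was -0.16 without C57BL/6J control 1. Sv2a passed in Txnip cones with the rod share as a covariate (log2 -0.39, adjusted p = 0.0274). Slc17a7 was 108 to 174 CPM (median 153) in BALB/c controls and 148, 258 and 159 CPM in C57BL/6J controls, a log2 difference of 0.37 ± 0.19 (edgeR adjusted p = 0.192) that was 0.05 without C57BL/6J control 2, 0.21 without BALB/c controls 4 and 5 and 0.18 without controls 2, 4 and 5. It passed in Txnip cones at 0.55 ± 0.19 (adjusted p = 0.046) with 131 to 174 CPM in BALB/c and 157, 279 and 239 CPM in C57BL/6J, and not without the 2 libraries (log2 0.37, adjusted p = 0.202). Ctbp2 and Slc17a7 were the least steady calls in Txnip cones: Slc17a7 was lost without any 1 BALB/c library but control 4 (adjusted p between 0.0514 and 0.112) and Ctbp2 without BALB/c control 1, 3 or 6 or Txnip 1, 2, 3, 4 or 6 (adjusted p between 0.0531 and 0.0934). Both were also lost without C57BL/6J Txnip 3 (adjusted p = 0.155 and 0.132) and with DESeq2 size factors in edgeR (adjusted p = 0.0622 and 0.0508). Slc17a7 did not pass in DESeq2 (adjusted p = 0.0569) or with at least 10 counts in every library (adjusted p = 0.0584). No adhesion or matrix gene passed in either contrast with all libraries. The nearest was Elfn1, at 0.68 ± 0.24 in control cones (adjusted p = 0.051) and 0.30 ± 0.24 in Txnip cones. In control cones Elfn1 passed with the rod share as a covariate (adjusted p = 0.0243), with all genes of at least 1 count (adjusted p = 0.00964), with the length correction (adjusted p = 0.0178) and without BALB/c control 1, C57BL/6J control 3 or C57BL/6J Txnip 1 or 2 (adjusted p between 0.019 and 0.0407), and its value was 0.39 without C57BL/6J control 2 (adjusted p = 0.32). Dmd was at -0.10 in control cones, and at -0.93 without C57BL/6J control 2 (adjusted p = 0.0222).

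The long genes of the set differed in their median level between the C57BL/6J libraries. Of 38 genes, 20 have over 7 kb of exonic bases, and relative to the mean of the 6 C57BL/6J libraries their median was 0.50 higher on the log2 scale in Txnip 2 and 0.22 higher in control 2, at -0.24 in control 1, -0.33 in control 3 and -0.40 in Txnip 1, and at 0.14 in Txnip 3. Above that mean lay 18 of the 20 long genes in Txnip 2, 15 in control 2, 15 in Txnip 3, 7 in control 1, 5 in control 3 and 4 in Txnip 1, so every library had exceptions. Dmd, at 23801 exonic bases the longest, was 131, 420 and 126 CPM in the C57BL/6J controls and 113, 390 and 291 CPM in the Txnip libraries, against 226 to 255 CPM in BALB/c controls. Cacnb2 moved in the same way, at 49.7, 211 and 45.2 CPM in C57BL/6J controls. All genes over 7 kb had medians of the same sign in the 6 libraries, at 0.32 in Txnip 2, 0.10 in control 2, -0.04 in control 1, -0.18 in control 3, -0.23 in Txnip 1 and 0.06 in Txnip 3. In the 12 BALB/c libraries the median of the long synapse genes stayed between -0.21 and 0.13. Over the 38 genes, the strain difference had a Spearman correlation with exonic length of -0.13 in control and -0.01 in Txnip cones, and genes share libraries, so this is a description. With the length correction, the calls of Snap25 and Vamp2 in control cones were lost, and those of Dnm1, Elfn1, Cacna2d4, Ctbp2 and Unc13a were added.

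**Figure D4:**
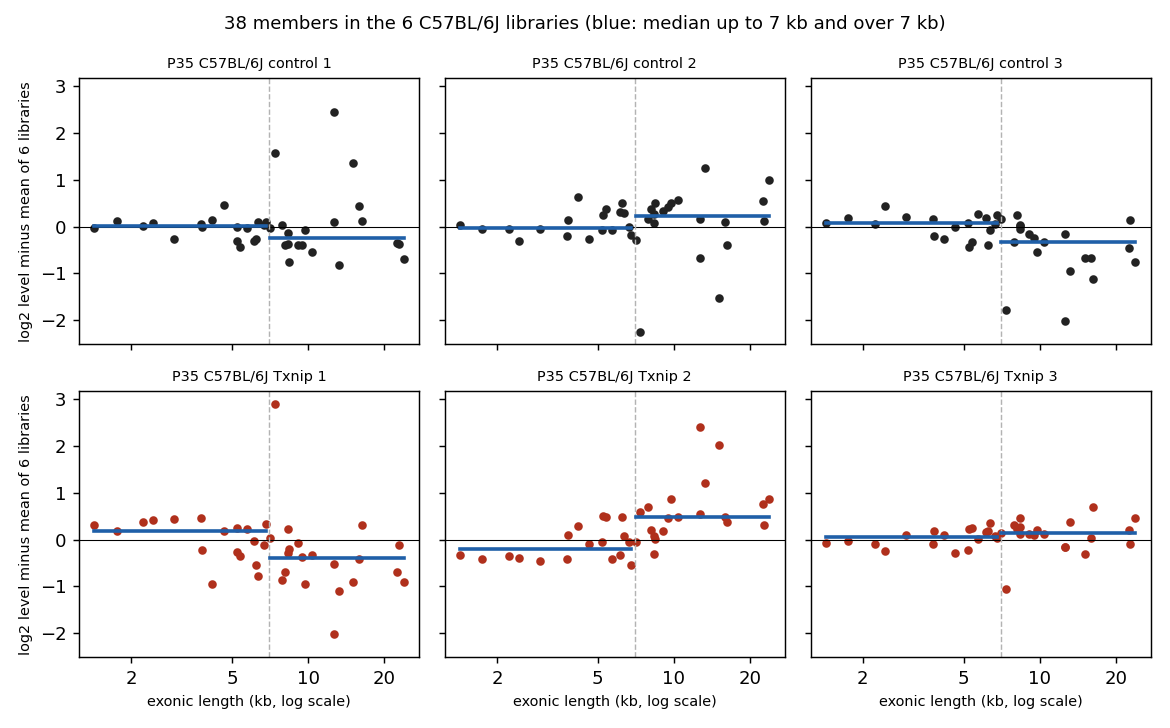
log2 level minus the mean of the 6 C57BL/6J libraries for 38 genes against exonic length (kb, log scale), 1 panel per library, with blue lines at the median of genes up to and over 7 kb. The median of the long genes is 0.50 in Txnip 2 and -0.40 in Txnip 1.

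Of 98 other synapse genes (synaptotagmins, complexins, SNAREs, scaffolds, channels and adhesion proteins), 95 were tested. In control cones 7 were higher and 25 lower in C57BL/6J, with a median log2 difference of -0.29, and in Txnip cones 11 were higher and 23 lower, with a median of -0.26. These 32 and 34 calls are 33.7% and 35.8% of the list, beside 17.5% and 17.6% of all genes. The list was chosen with earlier results of these data known, so the excess is a description and not a test. Cplx1, the complexin of conventional synapses, was 8.37-fold lower in control cones (log2 -3.06 ± 0.55, edgeR adjusted p = 0.000408). Lin7a, a PDZ adaptor, was 7.71-fold lower, and Syt4, a synaptotagmin, 6.15-fold lower. In Txnip cones Cplx1 was 16.8-fold and Syt4 6.94-fold lower, without overlap, and Lin7a 2.98-fold lower with overlapping libraries. Higher in C57BL/6J were Tspoap1 (RIM-binding protein 1, 2.01-fold), Ppfia1 (liprin-alpha-1, 1.72-fold) and Lin7b (1.72-fold), all past the threshold also in Txnip cones. Medians were lower in C57BL/6J for 8 of 10 amacrine and 3 of 4 horizontal markers, in control and in Txnip libraries. For bipolar markers these were 5 (control) and 9 (Txnip) of 10, and for rod markers 6 and 8 of 10. For Müller glia markers they were 2 and 5 of 8, and for cone markers 1 and 4 of 11. The part of other cell types in the lower synapse genes was not tested.

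No gene of the set was called for Txnip in either strain. In BALB/c cones, 0 of 38 genes passed an adjusted p of 0.05 (edgeR, 12017 genes tested), beside 0.0166% of all genes, and 0 of 38 passed in DESeq2. The median log2 difference was 0.04 over the 38 genes and 0.00 over all genes. At an unadjusted p of 0.05, 6 of 38 genes passed (15.8%), beside 11.4% of all genes, and these 6 are given as unadjusted values. In C57BL/6J cones, 0 of 37 genes passed, beside 0.0154% of all genes, and 0 of 37 had an unadjusted p under 0.05, beside 0.748% of all genes. DESeq2 also called none there. With every gene of at least 1 count kept in the BALB/c fit, 4 of the 39 genes passed (Rims1, Syp, Cadps2 and Dag1). Over all genes the calls rose from 2 to 1400, so the gain was not confined to the set.

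Rims1 had the smallest p of the 6. It was 17.6 to 87.2 CPM in BALB/c controls and 71.7 to 111 CPM in BALB/c Txnip cones, so that 1 control library lay within the Txnip range. The log2 difference was 0.82 ± 0.22 (1.77-fold, unadjusted p = 0.00129, adjusted p = 0.134). That 1 library was BALB/c control 1, and without it the log2 difference was 1.03 and the adjusted p 0.0498. In C57BL/6J cones, where the gene is at a few counts, Rims1 was at 1.62 ± 1.39 (unadjusted p = 0.27), a value that was -0.27 without C57BL/6J Txnip 1 and 5.71 without C57BL/6J control 1. Without BALB/c controls 2, 4 and 5 the BALB/c difference of Rims1 was 0.54 ± 0.19 (unadjusted p = 0.00905, adjusted p = 0.976). By median, the summed bipolar, amacrine and Müller glia lists took more of the counts in BALB/c Txnip than in BALB/c control libraries. The bipolar list took 0.00698% to 0.00842% of the control counts and 0.00867% to 0.0111% of the Txnip counts, without overlap. The amacrine list took 0.0262% to 0.0351% and 0.0318% to 0.0456%, the Müller glia list 0.103% to 0.121% and 0.116% to 0.129%, and the cone list 5.09% to 6.64% and 4.72% to 5.6%. The rod list took 1.24% to 1.52% and 1.32% to 1.38%, and the horizontal cell list 0.00261% to 0.00876% and 0.00139% to 0.00894%. Genes within a list went both ways by median CPM. Among amacrine markers Gad1 went from 111.8 in controls to 193.4 with Txnip and C1ql2 from 21.27 to 4.304. Among Müller glia markers Clu went from 997.2 to 1051 and Apoe from 84.32 to 58.81. The part of these lists in the Txnip values was not tested.

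Stx3 was 490 to 707 CPM (median 554) in BALB/c controls and 417 to 500 CPM (median 473) in BALB/c Txnip cones, a log2 difference of -0.28 ± 0.09 (unadjusted p = 0.00618, adjusted p = 0.229). Dag1 was 40.8 to 81.6 CPM (median 56.3) and 31.0 to 60.4 CPM (median 35.5), a log2 difference of -0.48 ± 0.19 (unadjusted p = 0.0216). With the share of the rod list without Sag and Pde6g as a covariate, these values were -0.15 for Stx3 (adjusted p = 0.898) and -0.29 for Dag1 (adjusted p = 0.93). The vesicle genes Sv2a and Syp were the 2 others with positive values. Sv2a was 214 to 239 CPM and 220 to 290 CPM, a log2 difference of 0.19 ± 0.08 (unadjusted p = 0.03), and Syp was 104 to 255 CPM and 152 to 462 CPM, a log2 difference of 0.56 ± 0.25 (unadjusted p = 0.038) that was 0.30 without BALB/c Txnip 6. Without BALB/c controls 2, 4 and 5 these values were -0.11 for Stx3 (unadjusted p = 0.191), -0.10 for Dag1 (unadjusted p = 0.624), 0.17 for Sv2a (unadjusted p = 0.0887) and 0.19 for Syp (unadjusted p = 0.471). Without those 3 controls, Rims1 was the 1 gene of 38 with an unadjusted p under 0.05, beside 4.9% of all genes, and without controls 4 and 5 alone Rims1 and Stx3 were the 2, beside 6.85%. All 6 genes overlapped between control and Txnip libraries.

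Erc1 was the 1 gene of the set with an unadjusted edgeR p under 0.05 for the difference of the Txnip effects. That is 2.63% of the 38, below the 4.79% of all genes. In BALB/c cones Erc1 was 16.3 to 28.3 CPM in controls and 9.3 to 19.5 CPM with Txnip, a log2 difference of -0.47 ± 0.22 (unadjusted p = 0.0417). In C57BL/6J cones it was 10.1, 6.80 and 3.88 CPM in controls and 11.7, 12.1 and 15.5 CPM with Txnip, without overlap, a log2 difference of 0.92 ± 0.44 (unadjusted p = 0.0656). The difference between the 2 effects was 1.43 ± 0.42 (unadjusted p = 0.00285, adjusted p = 0.906), and without BALB/c controls 2, 4 and 5 it was 1.22 ± 0.45 (unadjusted p = 0.0145), with -0.27 ± 0.24 in BALB/c cones (unadjusted p = 0.283). No gene of 14751 passed for this difference at an adjusted p of 0.05 (0%), and 1 of 38 synapse genes passed unadjusted, beside 4.79% of all genes. The next smallest p were those of Sv2a at -0.34 ± 0.21, which was -0.10 without C57BL/6J control 1, and Syp at -0.57 ± 0.42, which was -0.30 without BALB/c Txnip 6, -0.34 without BALB/c controls 4 and 5 and -0.22 without controls 2, 4 and 5. In C57BL/6J cones Dnm1 was 97.3, 144 and 89.3 CPM in controls and 101, 173 and 142 CPM with Txnip, a log2 difference of 0.34 ± 0.28 (unadjusted p = 0.263) that ran from 0.11 without Txnip 2 to 0.57 without control 2.

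**Figure D5:**
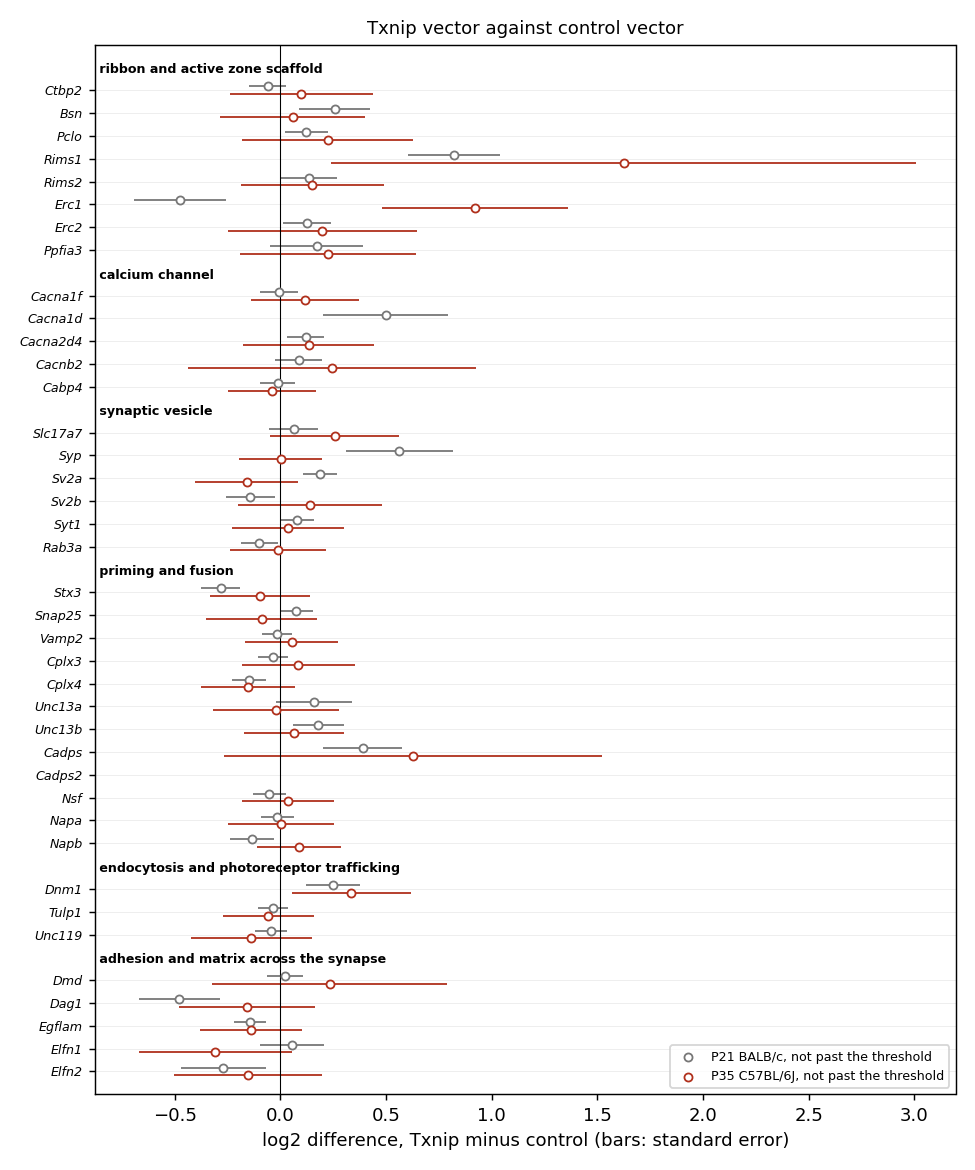
log2 difference, Txnip minus control, of each gene in BALB/c (grey) and C57BL/6J (red) cones, with bars of 1 SE and open points for genes not past an adjusted p of 0.05. No point is filled, and the bars of C57BL/6J, with 3 libraries per group, are wider than those of BALB/c, with 6, for every gene shown in both but Syp.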

How the data were processed

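Cones labelled with H2BGFP were sorted from single retinas, and libraries were made by a modified Smart-Seq2 protocol. The authors aligned reads with STAR to GRCm38.p6 and deposited raw counts of read pairs per gene from featureCounts, run on Ensembl 94 exons with no strand or multimapper option, with pairs on overlapping genes counted for each. BALB/c reads were therefore read against the C57BL/6J reference. Of 54532 gene IDs, 54409 had a symbol. The deposited lists of significant genes hold the authors' own fold changes and p-values and were not used.

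Counts were fitted with edgeR 4.0.16 (R 4.3.3): filterByExpr, TMM, a quasi-likelihood fit and Benjamini-Hochberg adjustment over all genes tested, called under 0.05. Each Txnip contrast used its strain's libraries, and the strain contrasts and the difference of the Txnip effects used 1 fit of all 18. The procedure was tested on simulated data. DESeq2 1.42.0, other scaling, filters, covariates, offsets and left-out libraries were the alternatives. All 39 genes are reported, with statistics for strain calls in control cones, for Txnip genes under an unadjusted p of 0.05 (or the 3 smallest) and for the 3 smallest p of the difference. Of the other synapse genes, the 3 largest called differences in each direction above the median level are named. The members and lists were chosen with earlier results of these data known. The smallest chi-square per degree of freedom between 2 libraries of a group was 1.91, so no library was a copy. Replicate numbers did not pair libraries (checked on deviations from group means).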

Additional observations from a re-analysis of the deposited data

Results flagged for a closer look

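Among 77 sets of 6 BALB/c values examined, 5 held a library whose gap to the nearest other value exceeded Dixon's 95% critical value. Chance alone gives about 1 in 20 such sets. In BALB/c control cones, Sv2a was 239.2 CPM in replicate 3 against 213.6 to 222.5 CPM in the others. Napa was 330.2 CPM in replicate 6 against 368.5 to 387.9 CPM. Tulp1 was 1040 CPM in replicate 4 against 1152 to 1209 CPM. Elfn2 was 43.6 CPM in replicate 2 against 23.9 to 27.3 CPM. In BALB/c Txnip cones, Syt1 was 1168 CPM in replicate 5 against 1074 to 1103 CPM.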

How the results depend on the processing

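The strain calls kept their direction under every alternative that tested them (Rims1 and Erc1 are not tested with at least 10 counts in every library). In control cones 7 to 13 genes passed under the alternatives other than leaving out 1 library, and 9 to 13 without 1 library. In Txnip cones these were 9 to 15 and 8 to 13. Calls over all genes moved as well under several of these alternatives, as given below. No count of the set here is therefore read as particular to it. In BALB/c cones 4 genes passed for Txnip (Rims1, Syp, Cadps2 and Dag1) with all genes of at least 1 count kept, and 0 to 1 without 1 library, the 1 being Rims1 without control 1. Over all genes that contrast was more dependent on the filter: 2 genes passed, against 77 in DESeq2, 1400 with all genes of at least 1 count, 0 with at least 10 counts in every library, and 258 without Txnip 1, 23 without control 1 and 6 without Txnip 2. In C57BL/6J cones 2 genes passed, against 5 and 0 with those 2 filters. For the difference of the Txnip effects the 0 genes became 186 with all genes of at least 1 count, 2 without C57BL/6J control 1 and Txnip 2, and 1 without control 1 alone. The strain calls in control cones over all genes were 2588, against 1507 with at least 10 counts in every library, 1605 without C57BL/6J control 3 and 1512 without BALB/c controls 2, 4 and 5, and in Txnip cones 2599 against 1475 with that filter. The causes were not tested. In C57BL/6J cones the Txnip value of Rims1 ran from -0.27 (without Txnip 1) to 5.71 (without control 1) on the log2 scale with 1 library left out, and no gene of the set passed under any alternative. With the rod share as a covariate it was 4.24, and the strain difference of Rims1 in control cones was -6.07. With a replicate block 0 genes of the set passed in either Txnip contrast or in the difference, and same-numbered libraries had correlations of -0.108 to 0.0993, so the numbers did not pair them. A planned omission of libraries with over 3 times the median rod share was not run because 0 libraries met it, the highest ratio being 1.80. The rod list without Sag and Pde6g as a covariate (13 and 15 genes passed in control and Txnip cones) and the omissions of C57BL/6J control 1 and Txnip 2 (13 and 13), of BALB/c controls 4 and 5 (9 and 11) and of BALB/c controls 2, 4 and 5 (7 and 11) were chosen after seeing the data. The biological coefficient of variation was 34.3% in C57BL/6J and 18.02% in BALB/c, and genes under about 20 CPM rest on few counts.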

Other observations

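Bsn, which encodes Bassoon, was, with Cacna1d and Cadps, 1 of the 3 genes of the set that were highest in C57BL/6J control 1 and Txnip 2 among the 6 C57BL/6J libraries, at 72.8 and 76.0 CPM against 33.5 to 58.0 CPM in the other 4. Over all genes tested, 13% had the same 2 libraries on top. Sv2b, the more abundant of the SV2 genes, was 416 to 1002 CPM in the 3 C57BL/6J controls and 819 to 1094 CPM in the 6 BALB/c controls, with a log2 difference of -0.42 ± 0.22 that did not pass with all libraries (edgeR adjusted p = 0.196).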
